A study of Mus musculus with 40 samples.

Results

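The comparison described here sets RNA pulled down from brown fat against RNA pulled down from liver: 5 brown fat IP libraries and 5 liver IP libraries, 10 of the 40 small RNA libraries of the study. The libraries were chosen by their labels alone, and all 1894 mature miRNA entries of the count table were examined in them. The study looks for RNA made in brown fat, there and in other tissues. IP means the RNA that streptavidin held once biotin had been attached to its thiols, and input means the small RNA before that step. The male mice of every group came from a cross of Tg(CAG-GFP,-Uprt)985Cdoe/J with Tg(Ucp1-cre)1Evdr/J, were 8 to 12 weeks old, ate standard chow and had received 4-thiouracil (4TU) by intraperitoneal injection at 50 mg/kg, 4 times at intervals of 48 h. The first transgene makes uracil phosphoribosyltransferase (UPRT) where Cre has acted, and the second drives Cre from the promoter of Ucp1, the uncoupling protein gene of brown adipocytes. Liver and brown fat therefore share the drug and the cross, and the labels used here name no group without 4TU, without Cre or without UPRT. Only replicates 2 and 5 of the 2 IP groups come from the same mouse, so the groups are mostly different animals.

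UPRT turns 4TU into a nucleotide that growing RNA takes up, and the thiol group it carries is the handle for biotin and streptavidin. A miRNA is a short RNA that guides Argonaute to messages through its seed, the bases that follow its first base, so miRNAs with one seed are grouped as a family. Brown fat burns fuel for heat and is known for the miR-378 family, the miR-193b and miR-365 cluster and miR-455, and it shares a developmental lineage with skeletal muscle. Hepatocytes are known for miR-122, the most abundant miRNA of liver, together with miR-192 and miR-194.

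The sequences of the miRNAs on which the results turn are given first, from RefSeq with the GRCm38.p6 annotation, which had a mature sequence for 48 of the 61 entries the naming rule selects and for 120 of the 142 entries that could be tested. They are written from 5′ to 3′, with the seed (bases 2 to 8) in capitals. The following miRNAs were higher in the brown fat pull-down, although the calls of miR-10a-5p and miR-30a-5p were lost under another scaling, and the miR-10 pair and the miR-30 trio each share a seed.
miR-615-3p: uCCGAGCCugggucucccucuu
miR-193b-5p: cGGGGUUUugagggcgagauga
miR-10b-5p: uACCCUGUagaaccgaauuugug
miR-10a-5p: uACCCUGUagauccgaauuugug
miR-206-3p: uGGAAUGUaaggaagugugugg
miR-378c: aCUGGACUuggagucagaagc
miR-378d: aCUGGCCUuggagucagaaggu
miR-455-5p: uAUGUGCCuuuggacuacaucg
miR-30e-5p: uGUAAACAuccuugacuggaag
miR-30c-5p: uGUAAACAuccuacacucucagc
miR-30a-5p: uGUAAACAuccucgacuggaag
miR-379-5p: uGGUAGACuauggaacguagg

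The next set was lower in the brown fat pull-down, that is, higher in liver, although not under every scaling. With total count the calls of miR-21a-5p, miR-21c, miR-148a-3p, miR-148b-3p, miR-221-3p and miR-222-3p were lost. The values of miR-148b-3p and miR-221-3p then turned sign, to 0.9 and 0.42. The miR-21 pair, the miR-148 pair and the miR-221 and miR-222 pair each share a seed.
miR-192-5p: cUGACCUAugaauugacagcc
miR-194-5p: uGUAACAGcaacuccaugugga
miR-21a-5p: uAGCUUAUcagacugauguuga
miR-21c: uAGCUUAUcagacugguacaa
miR-101b-3p: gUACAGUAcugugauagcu
miR-148a-3p: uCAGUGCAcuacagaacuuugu
miR-148b-3p: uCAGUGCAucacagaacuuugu
miR-221-3p: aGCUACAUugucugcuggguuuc
miR-222-3p: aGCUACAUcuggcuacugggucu
miR-423-5p: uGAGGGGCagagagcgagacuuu

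The let-7 family is shown because its members share a seed but did not share a direction.
let-7a-5p: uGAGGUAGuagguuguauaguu
let-7e-5p: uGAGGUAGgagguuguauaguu
let-7f-5p: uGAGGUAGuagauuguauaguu
let-7g-5p: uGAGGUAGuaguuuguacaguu
let-7i-5p: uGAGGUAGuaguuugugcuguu

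The depth of the 10 libraries was uneven. Brown fat IP totals ran from 210603 to 817018 counts (median 303446) and liver IP totals from 11928 to 444006 (median 187439), and liver IP 4 was the shallow one. Outside the 2 arms of miR-122, a liver IP library held 3328 to 106531 counts (median 33774) and a brown fat IP library 210342 to 816068. Levels are therefore given as counts per 1000000 counts outside the miR-122 arms (CPM outside miR-122), on which 1 count was worth 1.23 to 4.75 CPM in the brown fat IPs, 9.39 to 39.2 CPM in 4 liver IPs and 300.5 CPM in liver IP 4. In a principal component analysis, the first component (67.8% of the variance) separated the tissues, and liver IP 4 stood apart on the second (17.6%) at 19.59, where the other liver IPs lay between -8.18 and -5.57.

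miR-122-5p, the leading miRNA of hepatocytes, filled the liver pull-down. Its share of all counts was 76.9%, 82.0%, 76.0%, 72.1% and 75.0% in liver IP 1 to 5 (mean 76.4% ± 3.62, SD, n = 5). In brown fat IP 1 to 5 it was 0.111%, 0.130%, 0.0639%, 0.101% and 0.0866% (mean 0.0983% ± 0.0249, SD, n = 5). The lowest liver value lay far above the highest brown fat value. The log2 fold change, brown fat IP over liver IP, was -11.80 (SE 0.73, adjusted p = 2.04e-12, edgeR's quasi-likelihood test). Before the pull-down the share was 37.2% to 43.3% in the liver inputs and 0.0130% to 0.0212% in the brown fat inputs.

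Fewer miRNAs made up a liver library. The 10 leading entries held 90.3% to 97.7% of a liver IP library and 78.2% to 87.2% of a brown fat IP library. When each library was thinned to 11913 counts, 79.1 to 117 entries were detected in the liver IPs and 156 to 183 in the brown fat IPs, so the groups did not overlap. With the miR-122 arms set aside and 3328 counts drawn, the ranges were 92.4 to 115 and 98.6 to 118, which overlap. The unthinned numbers were 117 to 283 and 341 to 482.

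**Figure D1:**
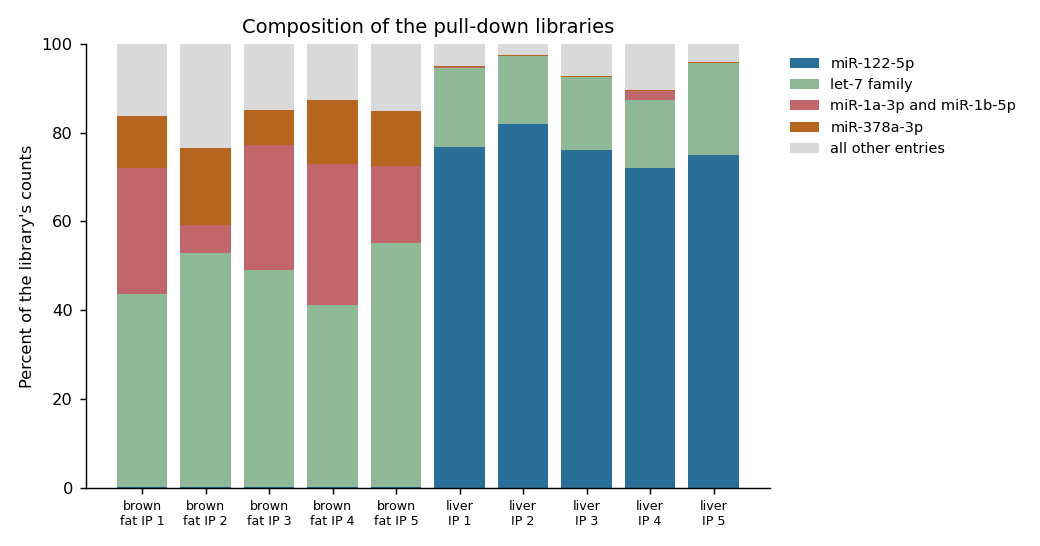
Each bar is 1 pull-down library and the colours divide 100% of its counts (y axis, percent) among miR-122-5p, the let-7 family, miR-1a-3p with miR-1b-5p, miR-378a-3p and all other entries. miR-122-5p takes 72.1% to 82.0% of every liver library and at most 0.130% of every brown fat library, whose colours are let-7, miR-1 and miR-378a-3p.

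Across the table, 142 entries had enough counts to be tested. With an adjusted p under 0.05, 47 were higher in the brown fat pull-down (33.1% of those tested) and 33 were lower (23.2%), so that 56.3% were called in one direction or the other. With total count alone 109 were higher and 8 lower. The filter on low counts used shares of all counts, miR-122 included. An entry thus needed a higher level outside miR-122 to pass through liver than through brown fat. The tested set, and with it the balance of higher and lower, can be weighted toward brown fat. The levels of the 5 brown fat and 5 liver libraries did not overlap for 45 entries (31.7%), of which 24 were called higher, 20 were called lower and 1 was not called. The median log2 fold change of the 142 entries was 0.17. It moved to 0.44 with the median-of-ratios scaling (RLE), to 0.14 with the total outside miR-122 and to 2.24 with total count alone, because the last counts the share that miR-122-5p takes from every other liver miRNA. Since these are bulk tissues, fewer cells of a type and less of a miRNA per cell cannot be told apart.

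The brown fat list gave 12 of the 47 higher entries. Of its 35 entries, 33 had a count and 19 passed the filter on low counts; these 12 of the 19 were higher, 0 were lower and 7 were not called. The median log2 fold change of the 19 was 1.55, beside 0.17 for all entries tested, of which 33.1% were called higher. Entries such as miR-193b-5p (262 counts in the brown fat IPs, 0 in the liver IPs), miR-378d (179 and 1) and miR-455-5p (254 and 2) passed the filter through brown fat alone. Their direction was thus nearly fixed by the filter. The list was also written with earlier results of these data known, so the count of 12 is a description. The miR-378 family, whose miR-378a lies within Ppargc1b, a coactivator gene of mitochondrial metabolism, was the most abundant group. miR-378a-3p stood at 115600, 173700, 78710, 143700 and 124600 CPM outside miR-122 in brown fat IP 1 to 5. In liver IP 1 to 5 it stood at 4784, 3109, 7078, 6911 and 4809. Every brown fat library was above every liver library by a wide gap, and the log2 fold change was 4.69 (SE 0.43, adjusted p = 1.96e-09). Its other arm, miR-378a-5p, was higher by 3.74 (adjusted p = 5.63e-06).

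The related entries miR-378c, miR-378b and miR-378d moved in the same direction. miR-378c stood at 2029, 4492, 1662, 3532 and 2731 CPM outside miR-122 in brown fat and at 78.4, 88.8, 187.7, 300.5 and 96.2 in liver, again without overlap, with a log2 fold change of 4.46 (adjusted p = 7.89e-09). miR-378b had 735 counts over the brown fat IPs and 3 over the liver IPs, a ratio of 27.9 on the scale of the test (exact 95% interval 9.50 to 135.5). miR-378d had 179 counts and 1 count, a ratio of 20.4 (3.61 to 809). Such intervals, and the bounds below, cover counting error only, as the reads carry no molecular identifiers. The mature sequences of miR-378c and miR-378d differ by A6C and C21G, counted from the 5′ end of miR-378c, and the counting could split reads among such near copies.

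Entries of miR-193b and miR-365, whose cluster is known to promote brown fat differentiation, were also higher. miR-193b-5p stood at 93.1, 230.1, 92.4, 175.9 and 141.6 CPM outside miR-122 in the brown fat IPs. All 5 liver IPs had 0 counts of it, so it was at least 9.94-fold higher on the scale of the test, taking 3 counts over the liver group. miR-365-3p, at 83.3, 75.3, 204.5, 508.7 and 298.2 in brown fat and 156.9, 0, 28.2, 0 and 76.9 in liver, was higher by 2.13 (SE 0.71, adjusted p = 0.0145), with overlapping groups. Hairpin Mir193b is annotated at chr16:13449523-13449601 and Mir365-1 at chr16:13453840-13453926, both on the plus strand of GRCm38. The 5′ arms of miR-365 have separate entries, miR-365-1-5p (107 counts in the brown fat IPs, 0 in the liver IPs) and miR-365-2-5p (67 and 7). miR-365-3p is 1 entry, so its counts cannot be assigned to Mir365-1 alone. miR-193a-5p, from another locus, was higher by 1.55 (adjusted p = 0.0074).

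miR-455, which promotes brown adipocyte differentiation, differed between its arms. miR-455-5p stood at 68.6, 196.6, 75.9, 190.2 and 188.8 CPM outside miR-122 in brown fat, while 4 liver libraries had 0 counts and liver IP 3 had 18.8, which is 2 counts. The ratio was 14.4 on the scale of the test (exact 95% interval 3.96 to 119.9) and the log2 fold change 3.97 (SE 0.75, adjusted p = 1.03e-04). miR-455-3p did not pass, with a log2 fold change of 0.27 (adjusted p = 0.64). The annotated interval, chr4:63256867-63256888 on the plus strand, lies in an intron of Col27a1, a collagen gene. The difference between the arms was not tested.

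Other members of the brown fat list were closer to the liver level. miR-182-5p was higher by 2.50 (SE 0.48, adjusted p = 1.27e-04), with 408.9 to 795.8 CPM outside miR-122 in brown fat and 0 to 196.1 in liver, and its cluster neighbour miR-183-5p had a value of 0.54 (adjusted p = 0.345). miR-203-3p was higher by 1.26 (adjusted p = 0.016) and miR-30c-5p by 1.08 (adjusted p = 0.0145). miR-26a-5p, miR-26b-5p, miR-27b-3p, miR-30b-3p and miR-328-3p did not pass, with log2 fold changes from -0.23 to 0.49.

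A pair of miRNAs from Hox clusters, the genes that set position along the body axis, was high in brown fat and low or at 0 in liver. miR-10b-5p stood at 2273, 5618, 2282, 1483 and 1950 CPM outside miR-122 in the brown fat IPs and at 39.2, 29.6, 37.6, 0 and 57.7 in the liver IPs, and its log2 fold change was 5.98 (SE 0.54, adjusted p = 1.75e-09). The lowest brown fat value was well above the highest liver value. Its hairpin is at chr2:74726070-74726137 on the plus strand, in introns of Hoxd3 and Hoxd4. miR-615-3p, at chr15:103014969-103014990 in an intron of Hoxc5, stood at 186.3, 414.1, 234.2, 299.5 and 270.3 in brown fat and had 0 counts in all 5 liver IPs, which makes it at least 19.4-fold higher.

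miR-10a-5p, of the HoxB cluster, shares its seed with miR-10b-5p and differs from it only by A12U, counted from the 5′ end of miR-10b-5p. It stood at 4887 to 13210 CPM outside miR-122 in brown fat (median 5623) and at 2588 to 4956 in liver (median 3386). Its log2 fold change was 0.93 (SE 0.36, adjusted p = 0.0298), and its groups overlapped. With the total outside miR-122 it was 0.91 and not called (adjusted p = 0.0607). The difference between the 2 relatives was not tested. miR-10b was also on the list of vessel wall and fibroblast miRNAs. Of that list 6 were tested, 4 were higher (33.1% over all entries tested), 0 were lower and the median was 1.19. Of these, miR-199a-3p and miR-199b-3p share their reads and count as 1 observation. The first was called at 0.87 (adjusted p = 0.04755), and again in 21 of 33 alternatives. The second was not called at 0.89 (adjusted p = 0.05697).

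**Figure D2:**
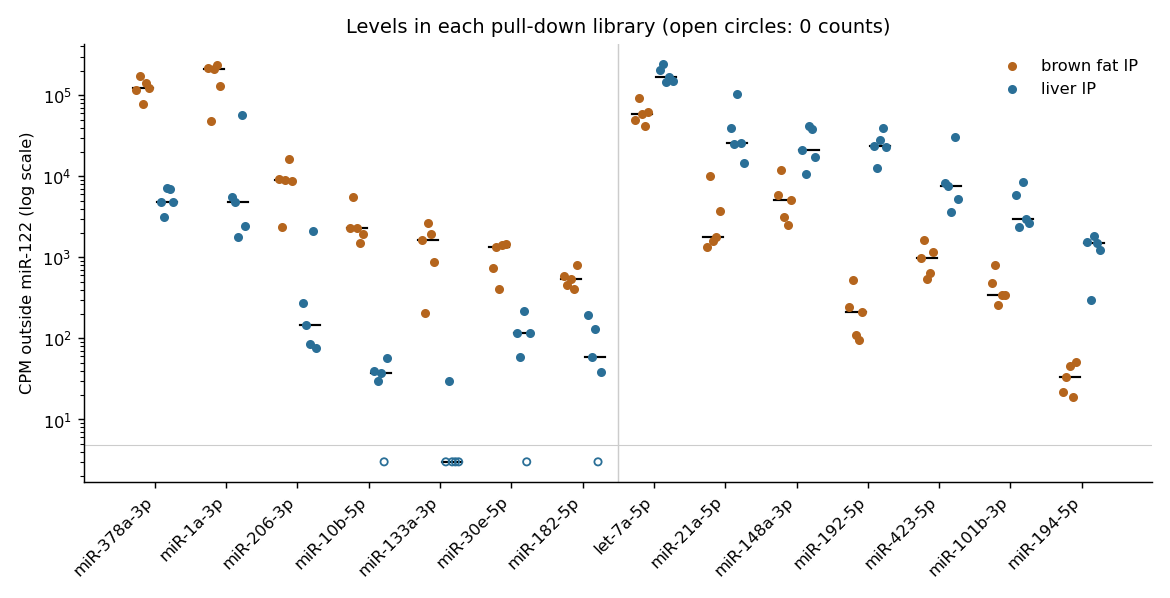
Points are single pull-down libraries, brown for brown fat and blue for liver, on a log axis of CPM outside miR-122; black lines are group medians and open circles under the grey line are libraries with 0 counts. miR-378a-3p and miR-10b-5p lie higher in all 5 brown fat libraries, miR-192-5p and miR-194-5p lie higher in all 5 liver libraries, and liver IP 4 sets the highest liver point of miR-1a-3p, miR-206-3p and miR-423-5p.

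The miRNAs of striated muscle made up a large and variable share of the brown fat pull-down. The list summed to 6.66% to 33.6% of a brown fat IP library (median 29.3%) and to 0.0595% to 2.16% of a liver IP library, and before the pull-down to 9.05% to 38.7% and 0.0863% to 0.156%. Of its 15 entries 8 had a count in the 10 IPs, 4 were tested and all 4 were higher, with a median log2 fold change of 4.93. Over all entries tested, 33.1% were called higher. miR-133a-3p (2987 counts in the brown fat IPs, 1 in the liver IPs) passed the filter through brown fat alone, so its direction was nearly fixed. The list was also written with earlier results of these data known, so the count of 4 is a description. miR-1a-3p, a miRNA of heart and skeletal muscle, stood at 214000, 48120, 211400, 238500 and 131100 CPM outside miR-122 in brown fat IP 1 to 5, the second of which was far below the others. In liver IP 1 to 5 it stood at 5490, 4797, 1793, 56490 and 2404, so the fourth liver library overlapped the brown fat range. The log2 fold change was 4.31 (SE 0.70, adjusted p = 1.43e-05) and 5.69 without liver IP 4 (adjusted p = 2.13e-07). miR-1b-5p shares its reads with miR-1a-3p (log2 fold change 4.4) and is no separate observation.

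miR-206-3p is made in skeletal muscle and not in heart. It stood at 9304, 2359, 8994, 16490 and 8711 CPM outside miR-122 in the brown fat IPs and at 274.5, 148.0, 84.5, 2103 and 76.9 in the liver IPs. The groups did not overlap, although liver IP 4, with 7 counts, nearly reached brown fat IP 2, and the log2 fold change of 5.47 (SE 0.68, adjusted p = 4.25e-07) was 6.26 without liver IP 4. miR-133a-3p stood at 1616, 205.0, 2622, 1963 and 881.7 in brown fat and had 1 count in liver, in IP 2, a ratio of 339.8 on the scale of the test (exact 95% interval 60.9 to 13430). miR-208a, miR-208b and miR-499-3p, markers of heart and slow muscle, had 0 counts in all 10 IPs, and miR-499-5p had 47 in brown fat and 0 in liver. Muscle markers thus moved with the brown fat libraries, and their part in the contrast was not tested.

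Markers of blood and vessel cells were examined next. miR-150-5p, a miRNA of mature lymphocytes, stood at 397.0, 368.1, 709.1, 503.9 and 401.1 CPM outside miR-122 in brown fat and at 0, 0, 9.39, 0 and 57.7 in liver, and its log2 fold change was 4.68 (SE 0.66, adjusted p = 2.46e-06). miR-146a-5p, a feedback inhibitor of innate immune signalling and the only other leukocyte entry tested, went the other way, with 234.2 to 311.2 in brown fat, 572.6 to 1020 in 4 liver IPs and 3005 (10 counts) in liver IP 4. Its log2 fold change was -1.74 (adjusted p = 7.62e-04) and turned to 0.23 with total count. miR-142a-3p and miR-223-3p, the general markers of blood leukocytes and of myeloid cells, had 3 and 6 counts in brown fat and 0 in liver. The leukocyte list summed to 0.0798% to 0.113% of all counts of a brown fat IP and 0.0173% to 0.0923% of a liver IP. Outside miR-122 the sums overlapped, at 0.0799% to 0.113% in the brown fat IPs (median 0.0881%) and 0.0745% to 0.331% in the liver IPs (median 0.110%).

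The entries of miR-126, the miRNA of endothelium, share their reads, and 2 of the 4 passed the filter and were higher by 0.87 (adjusted p = 0.0378). Without liver IP 4 none of the 4 was called, at 0.74 for miR-126a-3p. The 4 tested red blood cell entries were all copies or strands of miR-486 (1.36 to 1.62) and count as 1 observation, while miR-451a, the most specific of that list, had 5 counts in brown fat and 0 in liver, and miR-144 had 0 in both. miR-143-3p, of smooth muscle and fibroblasts, was higher by 1.53 (SE 0.40, adjusted p = 0.0029), with liver IP 4 at 24040 against 6099 to 9481 CPM outside miR-122 in the other liver IPs and 14180 to 39130 in brown fat. No epithelial entry was tested, and miR-200b-3p had 1 count in brown fat and 17 in liver.

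The liver list gave the largest differences in the other direction. Of 17 entries 15 had a count and 7 were tested. Of the 7, 6 were lower in the brown fat pull-down, 0 were higher, and miR-101a-3p did not pass (-0.56, adjusted p = 0.285). Over all entries tested, 23.2% were called lower. The median of the 7 was -5.05. miR-194-2-3p (16 counts in the brown fat IPs, 127 in the liver IPs) passed the filter through liver alone. The list was written with earlier results of these data known, so the count of 6 is a description. miR-192-5p, of liver and gut epithelium, stood at 247.5, 527.0, 108.8, 95.1 and 214.5 CPM outside miR-122 in brown fat and at 23760, 12820, 28080, 39660 and 22830 in liver, so the lowest liver library exceeded the highest brown fat one many times over. Its log2 fold change was -6.61 (SE 0.50, adjusted p = 9.44e-11). miR-194-5p is annotated both at Mir194-2 and at Mir194-1 (chr1:185313319-185313385), and its counts cannot be assigned to either. It stood at 22.1, 33.5, 46.2, 19.02 and 51.5 in brown fat and at 1569, 296.1, 1812, 1502 and 1231 in liver. Its log2 fold change was -5.05 (SE 0.47, adjusted p = 1.96e-09). miR-194-2-3p, the other arm of Mir194-2, had a value of -6.14. Hairpins Mir194-2 (chr19:6264643-6264728) and Mir192 (chr19:6264844-6264932) lie side by side on the plus strand and overlap no other annotated gene.

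miR-101b-3p, at chr19:29135279-29135375 in an intron of Rcl1, stood at 479.1, 811.5, 257.2, 347.1 and 341.1 CPM outside miR-122 in brown fat and at 5922, 2369, 8458, 3005 and 2655 in liver. These groups did not overlap, and the log2 fold change was -3.30 (SE 0.43, adjusted p = 7.73e-07), whereas its paralogue miR-101a-3p is the entry that did not pass. miR-148a-3p, a regulator of liver lipid genes, stood at 5823, 11820, 3153, 2510 and 5116 in brown fat and at 20940, 10600, 41770, 38760 and 17180 in liver. Brown fat IP 2 exceeded liver IP 2, and the log2 fold change was -2.03 (SE 0.41, adjusted p = 2.34e-04). With total count it was -0.16 and no longer called. Of its seed family, miR-148b-3p was lower (-1.17, adjusted p = 0.0246), or at 0.9 with total count and called in 19 of 33 alternatives, and miR-152-3p was at 0.15 (adjusted p = 0.768).

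**Figure D3:**
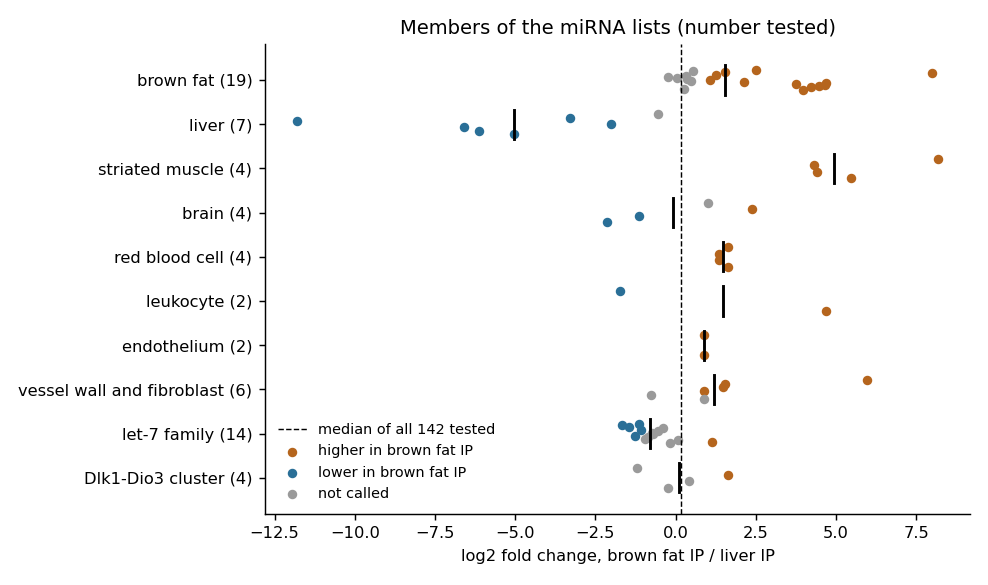
Each point is a tested member of a list (y axis, number tested in brackets) at its log2 fold change, brown fat IP over liver IP; brown is called higher, blue called lower, grey not called, black bars are list medians and the dashed line is the median of all 142 entries, 0.17. The liver list has a median of -5.05 and the striated muscle list of 4.93, while the let-7 and brain lists hold members of both signs.

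miR-21a-5p, which is not on the liver list, was lower as well. It is induced in growth and injury and is expressed in most cells. It stood at 1357, 10080, 1596, 1769 and 3711 CPM outside miR-122 in brown fat and at 39330, 25110, 104800, 25840 and 14410 in liver. Brown fat IP 2 and liver IP 3 were the high libraries of their groups, but the groups did not overlap, and the log2 fold change was -3.54 (SE 0.58, adjusted p = 1.49e-05). It was -1.42 with total count and then not called. miR-21c, which differs from it at 5 positions in the 3′ part, had a value of -3.31, and reads could have been divided between the pair.

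miR-221-3p and miR-222-3p, a pair known to act on cell cycle inhibitors, share a seed and a locus on chromosome X and were both lower, by log2 fold changes of -1.60 (adjusted p = 0.0041) and -2.33 (adjusted p = 3.62e-05). For miR-222-3p, brown fat values ran from 95.1 to 212.4 CPM outside miR-122 and liver values from 300.5 to 1020, without overlap. miR-185-5p was lower as well (-2.15, adjusted p = 7.86e-05), at 213.3 to 382.3 in brown fat and 601.0 to 1961 in liver. With total count, miR-221-3p was at 0.42, miR-222-3p at -0.18 and miR-185-5p at -0.09, and none of the 3 was called.

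miR-423-5p, from an intron of Nsrp1 (chr11:77078064-77078172, minus strand), stood at 995.0, 1627, 540.9, 646.6 and 1173 CPM outside miR-122 in brown fat and at 8235, 7698, 3595, 30350 and 5271 in liver. Liver IP 4 was the highest library with 101 counts, all liver libraries were above all brown fat libraries, and the log2 fold change of -3.16 (SE 0.44, adjusted p = 2.01e-06) was -2.71 without liver IP 4. The other arm, miR-423-3p, had a value of -0.67 (adjusted p = 0.124).

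miR-6236 was lower in the brown fat pull-down, with its highest level in the shallow library. It stood at 90.7, 71.1, 82.5, 33.3 and 55.8 CPM outside miR-122 in brown fat and at 156.9, 917.9, 319.2, 14120 and 1173 in liver, of which 14120 is 47 counts in liver IP 4. Its log2 fold change was -4.69 (SE 0.73, adjusted p = 9.38e-06) and -3.33 without that library (adjusted p = 2.24e-05). miR-5119, named because it lies beside miR-6236 in size and chosen after its values were seen, stood at 4.90 to 46.0 in brown fat, 131.4 to 325.7 in 4 liver IPs and 7812 in liver IP 4. Its value was -5.27, and -3.69 without liver IP 4.

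The let-7 family, which restrains growth and is abundant in most adult tissues, held much of both pull-downs. Its 21 entries summed to 41.1% to 55.1% of the counts outside miR-122 in the brown fat IPs (median 49.0%) and to 54.8% to 84.8% in the liver IPs (median 76.9%), and only liver IP 4, at 54.8%, reached the brown fat range, the other liver IPs lying between 68.8% and 84.8%. In the inputs the same sums were 7.28% to 10.7% and 6.95% to 10.9%. Of the 21 entries 20 had a count and 14 were tested. Of the 14, 1 was higher, 5 were lower and 8 were not called, with a median of -0.80. Over all entries tested, 33.1% were higher and 23.2% lower. let-7a-1-3p and let-7c-2-3p, among the 5, share their reads and count as 1 observation. With total count the same 14 gave 13 higher and 0 lower, so the direction of the family depends on whether miR-122-5p is counted.

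Within the family, members that differ by few bases took different places. let-7a-5p stood at 49040, 91600, 57940, 41680 and 61870 CPM outside miR-122 in brown fat and at 202900, 243900, 147000, 166200 and 148600 in liver. The groups did not overlap, and the log2 fold change was -1.68 (SE 0.43, adjusted p = 0.0026), or 0.53 with total count. let-7e-5p, which differs from let-7a-5p by U9G counted from the 5′ end, was lower too (-1.27, adjusted p = 0.0157). With total count it was called higher (0.98, adjusted p = 0.0314), and with RLE it was not called (-0.87, adjusted p = 0.06885). let-7f-5p, which differs by G12A and was the most abundant let-7 entry in both pull-downs, did not pass at -0.95 (adjusted p = 0.0637), or 1.24 with total count, although its groups did not overlap. It was called lower without liver IP 4 (-1.04, adjusted p = 0.0030) and with the total outside miR-122 (-0.88, adjusted p = 0.0092). let-7d-5p, at -0.69 (adjusted p = 0.144), was likewise called without liver IP 4 (-0.75, adjusted p = 0.0389). let-7g-5p (G12U and U18C) was at 0.08 (adjusted p = 0.882).

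let-7i-5p was the single member called higher with TMM, and it was also called higher with RLE, the total outside miR-122 and total count. It stood at 88030, 63990, 46730, 62640 and 59990 CPM outside miR-122 in brown fat and at 23760, 24370, 26910, 20730 and 49840 in liver, where only liver IP 5 overlapped the brown fat range. Its log2 fold change was 1.14 (SE 0.42, adjusted p = 0.0253). It differs from let-7a-5p by G12U, A17G, U18C and A19U. Reads of such near copies may have been divided among entries, so single members are uncertain.

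**Figure D4:**
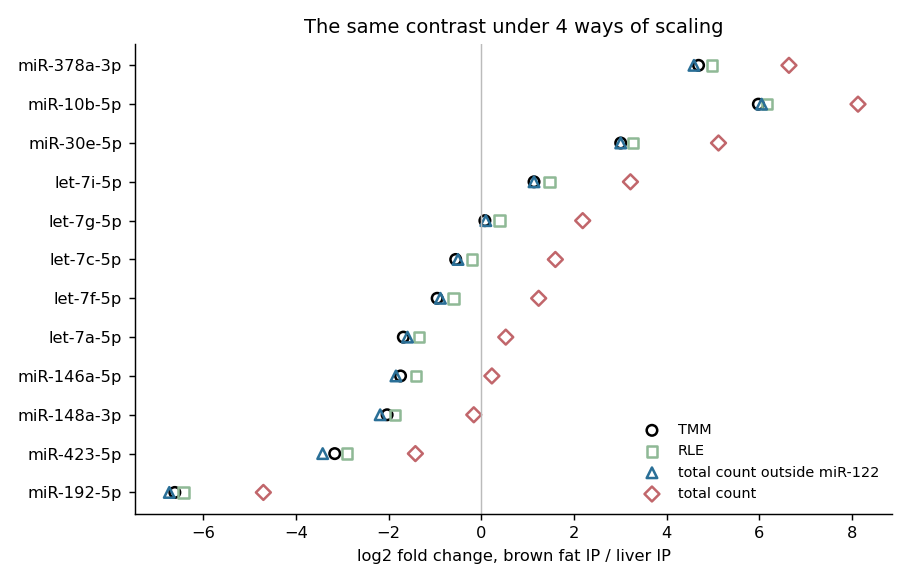
The x axis is the log2 fold change, brown fat IP over liver IP, of 12 miRNAs under 4 ways of scaling the libraries, each with its own open symbol. TMM, RLE and the total outside miR-122 lie close together, and total count lies to the right by about the 2.08 by which it shifts the median, which moves let-7a-5p from -1.68 to 0.53 and leaves miR-192-5p below 0.

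Other seed families can be read beside let-7. Of the 5′ arms of the miR-30 family (seed GUAAACA), miR-30e-5p was higher by 3.01 (adjusted p = 1.29e-05), miR-30c-5p by 1.08 and miR-30a-5p by 0.95 (adjusted p = 0.0424), and miR-30d-5p did not pass at 0.52 (adjusted p = 0.231). miR-30e-5p stood at 737.7, 1334, 409.0, 1407 and 1463 CPM outside miR-122 in brown fat and at 117.6, 59.2, 215.9, 0 and 115.4 in liver, without overlap. miR-30a-5p differs from it by U13C, and its groups overlapped. Its call was made again in 18 of 33 alternatives and was lost without liver IP 4 (0.87, adjusted p = 0.105) and with the total outside miR-122 (0.76, adjusted p = 0.211). Both miR-181 entries (ACAUUCA) were higher, by 1.51 and 2.65, and so were miR-103-3p and miR-107-3p (GCAGCAU), known in insulin signalling, by 1.47 and 2.0. These 2 seeds are outside the naming rule and were picked with their values known. Over all entries tested, 33.1% were higher. Other seeds were split, such as AGGAGCU (miR-708-5p higher at 7.58, miR-28a-5p not called at -0.42). No member of UCAAGUA (-0.23 to 0.32) or AAAGUGC (0.33 to 0.76) was called. Of the 4 entries with the seed UAUACAA, 3′ arms of let-7, 3 were lower: let-7b-3p (-1.46, adjusted p = 0.0059), let-7a-1-3p (-1.13, adjusted p = 0.0224) and let-7c-2-3p (-1.07, adjusted p = 0.0301). The last 2 are 1 observation, and their calls were made again in 23 of 33 and 15 of 32 alternatives. With total count all 3 were called higher, at 0.83, 1.09 and 1.15 (adjusted p = 0.0394, 0.0111 and 0.0094).

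Since 4TU enters RNA in place of uracil, the number of U in each mature sequence was set beside its difference. The median was 6 U in the entries called higher, 6.5 in those called lower and 7 in those not called, over 35, 30 and 55 entries with a sequence. Across the 120 entries, which are not independent replicates, Pearson's r of the U count with the log2 fold change was 0.01 and Spearman's rho -0.07.

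The same tissues were compared in the inputs, to see how much of the contrast was there before the pull-down. In the 5 brown fat and 5 liver inputs, 108 of 312 tested entries were higher in brown fat (34.6%) and 90 were lower (28.8%), which is 63.5% in all; with the total outside miR-122 the numbers were 153 and 40, and with total count 236 and 24. Of the 80 entries called between the pull-downs, 77 were also tested in the inputs; 61 were called there in the same direction, 0 in the opposite direction, and 16 were not called. The 61 are also the larger part of the 95 input calls among the 139 entries tested in both. Over those 139 entries the 2 sets of log2 fold changes had a Pearson's r of 0.92 and a Spearman's rho of 0.84, as a description, since the miRNAs are not independent and the libraries come from overlapping mice.

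The leading members were already far apart before the pull-down. miR-192-5p had an input log2 fold change of -7.54, miR-194-5p was at 254 to 758 CPM outside miR-122 in the brown fat inputs and 8580 to 20090 in the liver inputs, and miR-10b-5p had an input value of 6.68. The muscle miRNAs had input values of 6.18 for miR-1a-3p, 7.05 for miR-206-3p and 6.65 for miR-133a-3p. miR-378a-3p was at 2.93 in the inputs (adjusted p = 5.64e-07) and at 4.69 in the IPs.

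**Figure D5:**
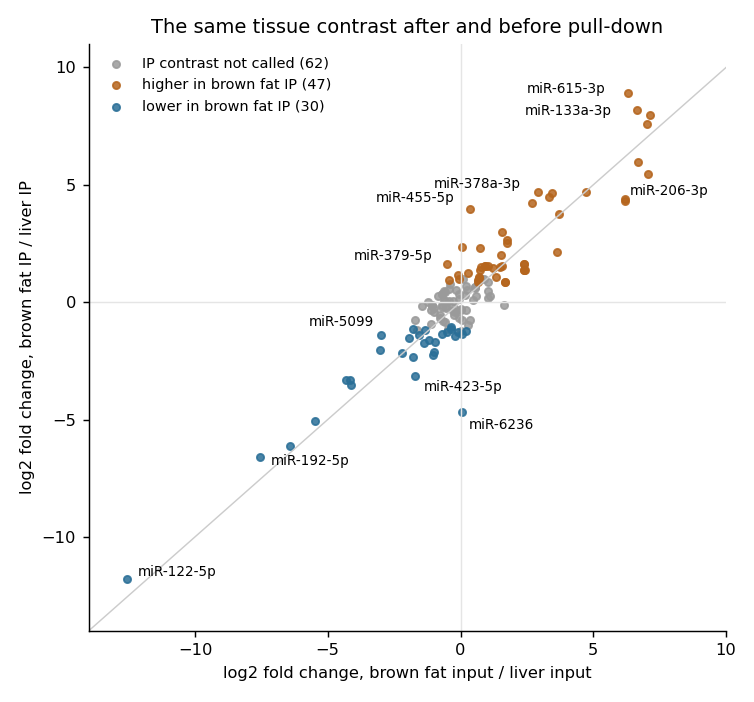
Each point is 1 of 139 miRNAs tested in both comparisons, with the input log2 fold change (brown fat over liver) on the x axis and the pull-down log2 fold change on the y axis; the grey diagonal is equality and the colours give the pull-down call. Most points follow the diagonal (Pearson's r 0.92); miR-455-5p, miR-379-5p and miR-378a-3p lie above it and miR-6236 below it.

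Whether the tissue contrast differed between pull-down and input was tested as an interaction over the 20 libraries, which are scaled together there, so its values are not the plain difference of the separate fits. Of 308 entries tested, 25 had a larger brown fat to liver value in the pull-down (8.12%) and 1 had a smaller one (0.325%), 8.44% in all. These counts were unstable: they were 3 and 1 with RLE, and 1 and 18 with the total outside miR-122. The median interaction over the 308 entries was 0.85 in the main fit, 0.4 with RLE and -0.34 with the total outside miR-122. Single interaction values, and the balance of larger and smaller, are to be read beside that median. The inputs belong to sequencing pool 1 and the IPs to pool 2, which this test cannot tell apart from the pull-down itself; the contrast of the 2 pull-downs lies within pool 2.

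Of the 26 entries, miR-379-5p was called in the same direction in all 31 alternatives of this test. It belongs to the imprinted Dlk1-Dio3 cluster, at chr12:109709060-109709125 on the plus strand. It stood at 552.7, 510.3, 385.9, 328.0 and 313.2 CPM outside miR-122 in the brown fat IPs and at 156.9, 118.4, 159.6, 0 and 115.4 in the liver IPs, without overlap. In the inputs it stood at 491.1, 533.7, 358.6, 515.0 and 346.4 and at 441.9, 444.6, 337.2, 287.1 and 462.4, with overlap. The interaction was 2.64 (SE 0.49, adjusted p = 0.0029), from a pull-down value of 1.63 and an input value of -0.50 (adjusted p = 0.111). Its cluster as a list had 100 entries, 50 with a count and 4 tested in the pull-down. Of the 4, miR-379-5p alone was higher and 0 were lower, beside 33.1% and 23.2% of all entries tested.

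miR-378a-3p and miR-455-5p were called in 26 and 23 of the 31 alternatives. miR-378a-3p had an interaction of 2.33 (SE 0.53, adjusted p = 0.0125): brown fat stood at 93630 to 131400 CPM outside miR-122 in the inputs and liver at 6737 to 12950, against 78710 to 173700 and 3109 to 7078 in the IPs. The brown fat ranges thus overlapped between input and IP, and the liver ranges overlapped only at their ends. miR-455-5p had an interaction of 4.04 (SE 0.90, adjusted p = 0.0125). It stood at 365.3 to 1575 in the brown fat inputs and 381.1 to 542.3 in the liver inputs, and the liver IPs held only 2 counts of it.

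miR-6236 was the entry with the opposite sign, at -3.55 (SE 0.86, adjusted p = 0.018), called in 26 of the 31 alternatives. Its inputs overlapped, at 16.1 to 120.7 CPM outside miR-122 in brown fat and 25.0 to 45.3 in liver. Without liver IP 4 there were 2 entries called larger in the pull-down and 0 smaller, so its call is lost there. miR-129-5p (2.76, adjusted p = 0.0271) was called in 9 alternatives, and miR-434-5p (7.12) and miR-361-5p (7.06) in 5 and 2, with a median of 0 in the liver IPs, so their size depends on the prior count of the fit and is no bound.

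The brain list was tested because hypothalamus belongs to the study, and its members did not move together. Of 42 entries 21 had a count in the 10 IPs and 4 were tested. Of the 4, 1 was higher and 2 were lower (33.1% and 23.2% over all entries tested), with a median of -0.07. miR-129-5p was higher by 2.37 (adjusted p = 0.005). miR-7a-5p was lower (-1.15, adjusted p = 0.0178), at 1078 to 3875 CPM outside miR-122 in brown fat and 3608 to 8425 in liver, and was at 0.92 with total count. Its call was lost in 14 of 33 alternatives, among them RLE (-0.78, adjusted p = 0.107) and DESeq2 (-0.78, adjusted p = 0.0869). miR-9-5p stood at 57.1 to 108.8 in brown fat and at 78.4, 0, 0, 300.5 and 1308 in liver; its value of -2.13 (adjusted p = 0.0224) became 1.92 (adjusted p = 0.0645) without liver IP 5, so that library sets its direction.

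Liver IP 4 was then left out. Of 157 entries then tested, 46 were higher and 36 lower, and 75 of the 80 calls were made again in the same direction. The 5 lost were miR-30a-5p, miR-126a-3p and miR-126b-5p, given above, and miR-27a-3p (0.90, adjusted p = 0.0686) and miR-99a-5p (0.74, adjusted p = 0.131). Of the entries tested in both fits, 3 were gained, let-7f-5p, let-7d-5p and miR-23b-3p (-1.05, adjusted p = 0.0254). miR-192-5p (-6.70), miR-10b-5p (5.82), miR-378a-3p (4.61) and miR-21a-5p (-3.92) kept sizes close to those with all 10 libraries. The values that moved most among those named were miR-1a-3p, miR-6236 and miR-5119, given above. Over all 33 alternatives, 35 of the 47 higher calls and 8 of the 33 lower calls were made every time; the smaller share of lower calls goes with total count, under which 8 entries were lower.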

How the data were processed

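Small RNA libraries were compared between brown fat and liver. The values are expected counts per mature miRNA and library, in 1 table deposited by the authors; 18.9% of the positive values were whole within 0.001. fastp, STAR, featureCounts and mm10 are named per the submitters' processing notes; their versions, the strand setting and the handling of multiply matching reads were not given in the sources used here. Counts were rounded, ties to even. Groups, mice and pools came from the labels, and 0 columns were left without a sample.

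Tests were two-sided, by edgeR 4.0.16 in R 4.3.3: filterByExpr by group, TMM scaling (trimmed mean of M values), the quasi-likelihood test and Benjamini-Hochberg adjustment over all entries tested, with a threshold of 0.05. The standard error is the log2 fold change over the root of F. The procedure was tested on simulated data. The labels name separate mice within a group. Same-numbered IPs of the 2 tissues share a mouse only for numbers 2 and 5, and same-numbered inputs only for number 2, since brown fat input 5 is labelled mouse 8 and the other libraries numbered 5 mouse 10. Because the IPs share a mouse for numbers 2 and 5 only, no pairing entered the main model. The deviations of these IPs correlated by 0.0609 and 0.0421 between the tissues. The correlation within mouse, by limma, was 0.0719. Entries that share reads were found by a correlation of log counts over 0.995 (25 pairs).

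Named are, for each direction, the 12 largest changes past the threshold with a median of at least 100 CPM in the higher group; 6 in each direction for the interaction; the 6 most abundant of each pull-down; up to 4 of each of 11 lists, and relatives with the same seed. The miRNAs, lists and rules were chosen with earlier results of these data known. Other list members are given to account for the lists. Alternatives covered scaling, filters, limma 3.58.1 (voom), DESeq2 1.42.0, blocks, shared entries, rounding and leaving out each library.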

Additional observations from a re-analysis of the deposited data

Results flagged for a closer look

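In 17 of 100 groups of 5 libraries, 1 library lay far from the other 4 by Dixon's criterion (gap over range above 0.71). Chance marks about 1 in 20 groups of independent, normally distributed values. The levels here are not logged, some rest on very few counts and some entries share reads. The 17 can therefore not be set against that rate. Values are CPM outside miR-122. Liver IP 4 was that library for miR-1a-3p (56490, next 5490), miR-1b-5p (18630, next 1843), miR-206-3p (2103, next 274.5), miR-6236 (14120, next 1173), miR-423-5p (30350, next 8235), miR-146a-5p (3005, next 1020), miR-143-3p (24040, next 9481), miR-382-5p (601, next 134.7) and, at the low end, miR-379-5p (0, next 115.4). Its counts behind these were 188, 62, 7, 47, 101, 10, 80, 2 and 0. The part of its low depth in them was not tested.

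Liver IP 5 stood apart for let-7i-5p (49840, next 26910), miR-9-5p (1308, next 300.5) and miR-150-5p (57.7, 3 counts). Liver IP 3 stood apart for miR-21a-5p (104800, next 39330) and miR-455-5p (18.8, 2 counts), and liver IP 2 for miR-133a-3p (29.6, 1 count). Brown fat IP 2 stood apart for miR-10b-5p (5618, next 2282) and miR-21a-5p (10080, next 3711).

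The tissue contrast differed between pull-down and input, by edgeR's interaction term, for miR-434-5p (7.12), miR-361-5p (7.06), miR-455-5p (4.04), miR-129-5p (2.76), miR-379-5p (2.64), miR-378a-3p (2.33) and miR-6236 (-3.55). Of these, miR-379-5p alone was called in all 31 alternatives. The median interaction of the 308 entries tested was 0.85.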

How the results depend on the processing

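The contrast of the pull-downs gave 47 higher and 33 lower entries, and 39 to 52 and 29 to 36 when each library was left out. Total count gave 109 and 8, and a fit over all 20 IP libraries, with a filter met in any tissue, 78 and 17. Rounding ties up gave 39 and 40; it was added after seeing the data, and ties to even was kept with both sets of calls known. Each of the 10 libraries as TMM reference, also added then, gave 41 to 50 and 27 to 37. The main fit is the one with the shallow liver IP 4 as reference, which gave the same 47 and 33. With no filter there were 70 and 44 of 651, with a minimum mean of 10 CPM 70 and 36 of 228, with DESeq2 54 and 30. The replicate block gave 43 and 30; the numbers pair the mice only in part, and no library correlated best with its own number. The input contrast (108 and 90) gave 236 and 24 with total count and 40 lower with the total outside miR-122; its block gave 109 and 88. The interaction (25 larger, 1 smaller) gave 3 larger with RLE, 1 and 18 with the total outside miR-122, 49 larger with TMMwsp, 2 and 3 with no filter, 3 larger with 10 CPM, 11 and 20 with DESeq2, 43 and 44 with limma-voom, 11 larger with shared entries once, 3 and 2 with ties rounded up, and 1 to 27 and 0 to 5 without each library; 18 of 20 such omissions moved the first number by over 1.5 times. Its replicate block gave 30 and 1. The cause was not tested.

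With total count, 4 calls of the main fit were made in the opposite direction. In all, 47 of the 142 pull-down values then turned sign, all from below 0, 16 of them called in the main fit. Among the miRNAs named they include let-7f-5p (1.24), let-7a-5p (0.53), let-7c-5p (1.6), let-7d-5p (1.43), miR-7a-5p (0.92), miR-146a-5p (0.23), miR-541-5p (1.99), miR-127-3p (0.76) and, of the other entries given above, miR-221-3p (0.42), let-7e-5p (0.98), miR-148b-3p (0.9), miR-423-3p (1.4), miR-101a-3p (1.49), miR-26b-5p (1.78), miR-23b-3p (1.18) and the let-7 3′ arms given above. miR-9-5p turned to 0.46 with limma-voom, 0.42 with the mouse as random block and, over the omissions of single libraries, ran from -2.54 to 1.92 (without liver IP 5). In the inputs, total count turned miR-434-5p (1.34), miR-379-5p (0.92), let-7f-5p (0.26), let-7g-5p (0.75), let-7i-5p (1.28), let-7a-5p (0.41), let-7c-5p (1.19), let-7d-5p (1.28), miR-27b-3p (0.84), miR-7b-5p (0.01), miR-9-5p (0.42), miR-146a-5p (0.05), miR-541-5p (0.44) and miR-382-5p (0.83). The total outside miR-122 turned let-7g-5p (0.01), let-7i-5p (0.54), miR-27b-3p (0.09) and miR-382-5p (0.09), and miR-6236 ran from -1.01 (without brown fat input 1) to 0.28 over such omissions. In the interaction, let-7a-5p turned to -1.24 with the total outside miR-122 and miR-9-5p ran from -1.2 to 3.25 (without liver IP 5). Depth limits liver IP 4, where 3 counts are 901 CPM outside miR-122.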
